A study of Homo sapiens with 80 samples.

Results

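The genes described here encode the proteins of the cytosolic ribosome. They were chosen by symbol (RPL or RPS followed by a number, with the endings A, L, X, AL or L1 allowed, together with RPLP0, RPLP1, RPLP2 and RPSA) and by a mean count of at least 100 over the 80 libraries. Of the 60663 genes in the count table, 85 had such a symbol and 83 of these passed the limit on the mean count, as did 11212 genes in all. The members just above the limit were RPS10, RPL36A and RPL22L1, with mean counts of 185, 309 and 328. RPL3L and RPL10L, with 9.85 and 0.55, fell outside it and are not considered further. The mean count was part of this choice, so the levels of the members are given as a description only. All 83 members passed the filter on low counts in every comparison.

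Ribosomal proteins are built together with ribosomal RNA into a small (RPS) and a large (RPL) subunit in the nucleolus, and a growing cell devotes much of its transcription and translation to them. Their mRNAs are short, abundant and stable, and as a class begin with a cytosine followed by a run of pyrimidines, the 5′ terminal oligopyrimidine (TOP) motif, through which mTOR signalling and the protein LARP1 set their translation together. Many of their introns hold small nucleolar RNAs, and reverse transcription has scattered processed pseudogenes of them over the genome. A few members are diverged paralogues of a canonical gene, namely RPL7L1, RPL22L1, RPL26L1, RPL36AL, RPL39L and RPS27L.

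The RNA-Seq libraries were made with depletion of ribosomal RNA from Jurkat T cells, clone E6-1, a leukaemic human T lymphocyte line. In the 9 g experiment, cells in a pipette were spun at 9 g in a pipette centrifuge for 20 s or 75 s (groups hypg20s and hypg75s) or for 3, 5, 7, 9, 15 or 60 min (groups hypg3, hypg5, hypg7, hypg9, hypg15 and hypg60). Control cells were held in the pipette at 1 g, those of Ctrl for 15 min and those of Ctrl60 for 60 min, and every group had 6 libraries. In the 300 g experiment, cells were spun at 300 g for 5 min and lysed after waiting 1 min (wait1min), 4 min (wait4min) or 15 min (wait15min), and 4 libraries of each were compared with 4 uncentrifuged controls (A-Ctrl) and with 4 libraries of cells heated to 42 °C (heat). The comparisons ask how short exposures to hypergravity, and a routine centrifugation step, alter the transcriptome. All libraries come from 1 clonal line, and nothing in the sample descriptions says that libraries of a group came from separate cultures, so the p-values measure the spread between libraries, which may be technical. In such bulk RNA, fewer cells that express a gene and less of its RNA per cell cannot be told apart.

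Each library of the 9 g experiment had between 22634465 and 41893490 counts, and each of the 300 g and heat experiment between 24417717 and 41220541. Library 75 of hypg15 held 17205655 counts and had no count for 32 of the 83 members, so it was left out and hypg15 has 5 libraries. Library numbers 69 to 80 belong to hypg3 and hypg15 and numbers up to 48 to the other groups at 9 g, so an effect of this separate numbering and an effect of these durations cannot be told apart. The count columns of Ctrl60 are named as Ctrl plus HEPES, and those of wait1min and wait4min as instant and 1min, and the sample titles were followed. No column of hypg60 names HEPES, a buffer, so every comparison of hypg60 with Ctrl60 may also carry a difference in medium, which was not tested. The T cell genes CD3D, CD3E, CD3G, CD247, LCK, CD28 and ZAP70 were detected in each of the 79 libraries, with LCK between 604 and 1519.6 CPM (counts relative to library size). MS4A1, CD14, LYZ, CSF1R, HBB, HBA1, EPCAM and KRT8, markers of other cell types, stayed at or below 0.665 CPM, and CD79A, a further B cell marker, was present at 27.9 to 71.7 CPM.

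The first bases of the mRNAs are shown because the TOP motif is what these genes share beyond their product. Each sequence below covers 10 bases before and 20 bases from the RefSeq start site (GRCh38.p14, on the strand of the gene). Capitals mark a C at the first transcribed base with the unbroken C and T bases after it, where at least 4 follow. RPLP0, RPS6, RPL34 and RPS24 stand for the canonical members, RPL22, RPS27 and RPL36A for canonical partners of a paralogue, and RPL22L1 for a paralogue with such a tract.
RPLP0, chr12:120201092-120201121, minus strand: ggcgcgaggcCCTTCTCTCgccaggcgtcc
RPS6, chr9:19380217-19380246, minus strand: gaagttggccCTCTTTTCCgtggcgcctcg
RPL34, chr4:108620566-108620595, plus strand: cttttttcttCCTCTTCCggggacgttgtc
RPS24, chr10:78033853-78033882, plus strand: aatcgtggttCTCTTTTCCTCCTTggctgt
RPL22, chr1:6199576-6199605, minus strand: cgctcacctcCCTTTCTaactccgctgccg
RPS27, chr1:153990752-153990781, plus strand: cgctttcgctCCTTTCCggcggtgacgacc
RPL36A, chrX:101391001-101391030, plus strand: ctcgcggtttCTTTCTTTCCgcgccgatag
RPL22L1, chr3:170870176-170870205, minus strand: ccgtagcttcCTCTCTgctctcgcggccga
The paralogues RPL7L1, RPL26L1, RPL36AL and RPS27L have no C with at least 4 pyrimidines after it at that base.
RPL7L1, chr6:42879606-42879635, plus strand: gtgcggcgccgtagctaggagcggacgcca
RPL26L1, chr5:172958719-172958748, plus strand: tccaggggtcggcgaacgaaacgcggagct
RPL36AL, chr14:49620607-49620636, minus strand: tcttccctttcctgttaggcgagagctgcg
RPS27L, chr15:63157458-63157487, minus strand: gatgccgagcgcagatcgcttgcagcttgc
A start site was found for 67 of the 83 members. A C at the start site followed by at least 4 further C or T bases, read on the strand of the gene, was present in 47 of these 67 (70.1%) and in 1404 of 27305 genes of the same table (5.14%). Allowing such a C anywhere within 5 bases of the annotated start gave 55 of 67 members (82.1%) and 25.2% of all genes. The match is a description of the annotated start and not a measured transcription start in these cells.

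The 83 members comprise 51 proteins of the large and 32 of the small subunit. They lie on 21 chromosomes, 12 of them on chromosome 19. Introns and exons of 28 members contain 60 annotated small nucleolar RNA genes, and 78 members have at least 1 pseudogene, up to 133 for RPL21. The GC content of the members ran from 40.3% to 63.5% with a median of 49.4%, against a median of 49.5% over all genes with a mean count of at least 100. Members made up 12 of the 50, 26 of the 100 and 58 of the 500 genes with the largest mean count. Per kilobase of annotated exon, the highest levels in Ctrl were those of RPS2 (1026 ± 52.5 CPM per kb, SD, n = 6), RPL7A (958 ± 74.8) and RPL8 (936 ± 76.1), and neighbours in this order differed by less than the sum of their SDs. RPLP0, the base of the ribosomal stalk, reached 708 ± 58.3 CPM per kb. The lowest levels were those of RPS10 (2.26 ± 0.234), RPL36A (1.76 ± 0.169) and RPS27L (1.46 ± 0.0962). Exon length here is the union of all annotated transcripts, and read pairs that fit several places or genes were not counted, both of which lower such values. RPS10 shares 40.3% of its exon bases with the readthrough gene RPS10-NUDT3, RPL17 shares 32.9% and RPS2 25.9% with other genes, so their counts are uncertain.

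More members were lower than higher in each group of both centrifugation experiments, as the plot of members called shows. At 9 g, 12 of 83 members were lower after 20 s and up to 57 at later times, with medians from −0.01 to −0.22 on the log2 scale. After 300 g, 70 to 75 members were lower and the medians lay between −0.83 and −0.72, well below the medians at 9 g. After heat only 2 were lower and 3 higher. The list was chosen with such results known, so these counts are descriptions of the members, set beside the share of all genes called in the same fit.

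**Figure D1:**
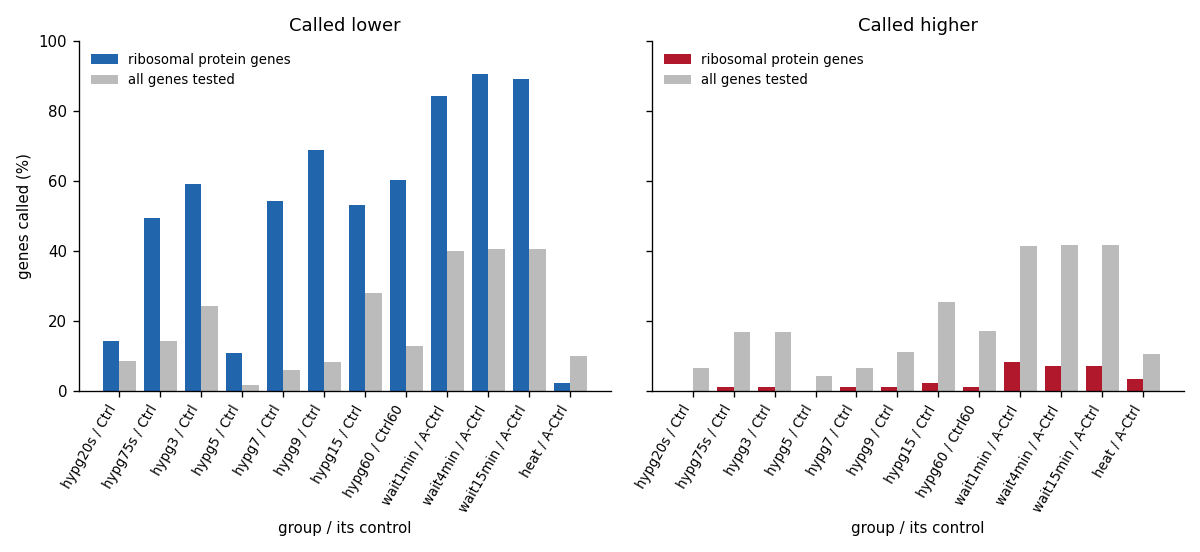
Percent of the 83 members and percent of all genes tested that were called lower (left) or higher (right) at an adjusted p-value under 0.05, for each group against its own control. The members' bar for lower exceeds that of all genes in every 9 g and 300 g group, from 14.5% against 8.58% at hypg20s to 90.4% against 40.6% at wait4min, while after heat it is 2.41% against 10.2%.

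The share of a library's counts that fell on the 83 members summarises their level without a model. It was 6.72% ± 0.231 (SD, n = 6) in Ctrl, with libraries from 6.45% to 7.11%, and 6.71% ± 0.26 (n = 6) in Ctrl60. In Ctrl60 library 9 held 6.19% and the other 5 libraries lay between 6.75% and 6.89%, at a mean of 6.82% ± 0.0548. After 20 s at 9 g the share was 6.69% ± 0.2, within the spread of Ctrl. The groups hypg75s, hypg3 and hypg5 had shares of 6.32% ± 0.161, 6.24% ± 0.241 and 6.33% ± 0.271, and hypg7 and hypg9 of 6.09% ± 0.281 and 6.10% ± 0.121 (n = 6 each). All 6 libraries of hypg9, from 5.95% to 6.23%, lay below all of Ctrl. It was 6.03% ± 0.387 at hypg15 (n = 5) and 6.05% ± 0.282 at hypg60 (n = 6), where libraries of hypg15 reached up to 6.51% and so overlapped Ctrl. The libraries of hypg60 reached up to 6.30% and overlapped Ctrl60 through library 9 alone.

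In the 300 g experiment the share was 6.28% ± 0.0839 in A-Ctrl (SD, n = 4, 6.20% to 6.40%) and 4.32% ± 0.282, 4.18% ± 0.0427 and 4.12% ± 0.0884 after waiting 1 min, 4 min and 15 min (n = 4 each). No centrifuged library reached the lowest control, the highest being library 54 of wait1min at 4.75%. Without library 54, wait1min stood at 4.18% ± 0.0128 (n = 3). Heat gave 6.52% ± 0.259 (n = 4, 6.28% to 6.88%), a range that overlaps A-Ctrl. Other classes of reads moved in the same libraries: the mitochondrial share was 1.49% ± 0.103 in Ctrl, 2.29% ± 0.603 in hypg15, 2.36% ± 0.249 in hypg60, 2.07% ± 0.0443 in A-Ctrl and 2.43% ± 0.0563 in wait1min, and the protein-coding share was 90.9% ± 0.296 in Ctrl, 88.3% ± 1.30 in hypg15 and 92.3% ± 0.0509 in wait1min. Their part in the members' share was not tested. Of the protein-coding counts alone, the members took 7.40% ± 0.276 in Ctrl, 6.76% ± 0.137 in hypg9 and 6.82% ± 0.364 in hypg15, and 7.38% ± 0.27 in Ctrl60 and 6.75% ± 0.361 in hypg60. At 300 g they took 6.85% ± 0.0888 in A-Ctrl, 4.68% ± 0.303 in wait1min and 4.44% ± 0.0976 in wait15min. On this measure the libraries of hypg15 and hypg60 overlapped their controls, and those of hypg9, wait1min and wait15min did not.

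**Figure D2:**
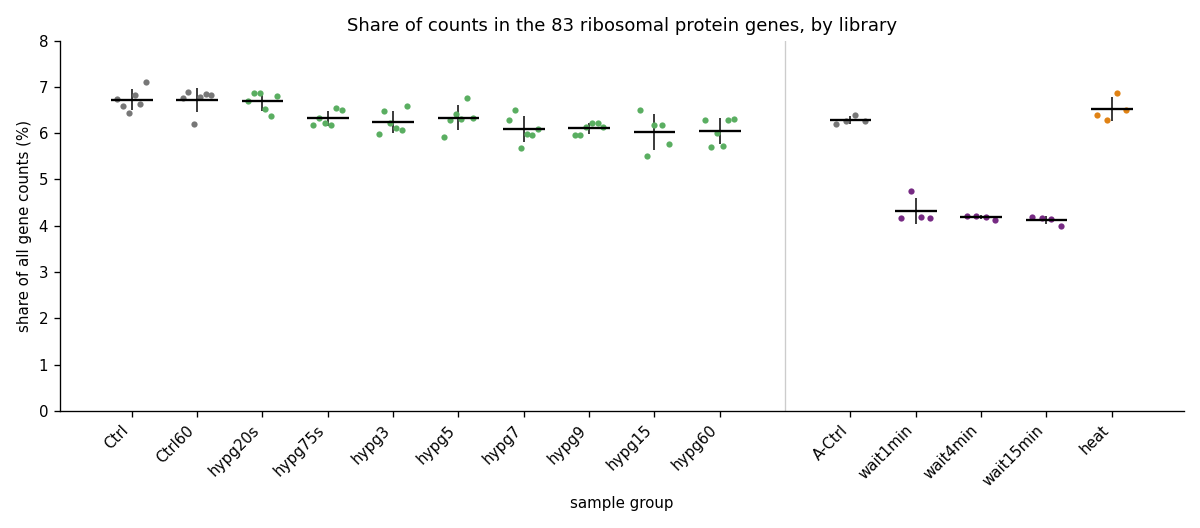
Share of all counts that fell on the 83 members, in percent, for each library (points) with the mean and SD of its group. The 12 libraries spun at 300 g lie between 3.99% and 4.75%, below the A-Ctrl range of 6.20% to 6.40%, whereas the 9 g groups lie between 5.52% and 6.87% beside a Ctrl range of 6.45% to 7.11%.

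The 9 g comparisons used edgeR's quasi-likelihood test with Benjamini-Hochberg adjustment over all genes tested, and a member was called at an adjusted p-value under 0.05. The 7 groups up to 15 min share the 6 Ctrl libraries, so their counts are not independent of each other. At hypg20s 0 members were higher and 12 lower, where 6.66% and 8.58% of all genes were called in these directions, and the members' median was −0.01. The 14.5% of members that were lower is near this background. At hypg75s 41 members were lower (49.4%, against 14.4% of all genes) and 1 was higher (16.8% of all genes). Hypg3 had 49 lower members against 24.4% of all genes and 1 higher member against 16.9%. At hypg5, where few genes of any kind were called (1.69% lower and 4.33% higher), 9 members were lower and 0 higher. This number was 20 with total counts as the only scaling (1.65% of all genes lower), 17 with DESeq2 (3.52%) and 28 with the GC correction described below (6.50%).

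From 7 min on, about as many members were lower as at 3 min. Hypg7 had 45 lower members against 6.19% of all genes and 1 higher against 6.64%. Hypg9 had the largest number, 57 of 83 (68.7%) against 8.34% of all genes, and 1 higher against 11.3%. The median over the members was −0.19 at hypg9, and the median of each hypg9 library against the Ctrl mean lay between −0.23 and −0.17, all below 0. At hypg15 44 members were lower and 2 higher, beside 27.9% and 25.4% of all genes. Against its own control, hypg60 had 50 lower and 1 higher members, beside 13.0% and 17.1% of all genes, and without library 9 of Ctrl60, an alternative added after seeing the data, 49 were lower (beside 9.63% of all genes) and 1 higher. The members' medians were −0.12, −0.17, −0.13, −0.20, −0.20 and −0.22 at hypg75s, hypg3, hypg5, hypg7, hypg15 and hypg60, while the median over all genes tested stayed between −0.02 and 0.02 in these fits. Library 75, had it been kept in hypg15, would have left 27 lower members, beside 15.3% of all genes, and 1 higher member.

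RPL34, a large subunit protein (ENSG00000109475, chr4:108620569-108630412, plus strand, GRCh38), was lower in each of the 8 comparisons. Its lowest, median and highest library stood at 300.2, 334 and 349 CPM in Ctrl, 246, 285 and 301 in hypg20s and 235, 254 and 275 in hypg75s. In hypg3 they stood at 171, 223 and 241 CPM, in hypg9 at 218, 235 and 257 and in hypg15 at 146, 186 and 189. The libraries of hypg20s overlapped Ctrl at their upper end, and those of hypg75s, hypg3, hypg9 and hypg15 lay wholly below it. In edgeR's quasi-likelihood test RPL34 fell by 0.23 ± 0.05 on the log2 scale at hypg20s (± SE, adjusted p = 0.0052), 0.63 ± 0.06 at hypg3 (adjusted p = 1.1e-05) and 0.93 ± 0.07 at hypg15 (adjusted p = 9.1e-07). Against Ctrl60, with 296, 315 and 336 CPM, the libraries of hypg60 at 191, 218 and 264 CPM did not overlap either, and RPL34 fell by 0.50 ± 0.08 (adjusted p = 0.00022). With the GC correction RPL34 did not pass at hypg20s (−0.086, adjusted p = 0.34) or hypg5 (−0.13, adjusted p = 0.27).

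RPS24, a small subunit protein whose gene is mutated in some families with Diamond-Blackfan anaemia (ENSG00000138326, chr10:78033760-78056813, plus strand), was also lower in each of the 8 comparisons. Its lowest, median and highest library stood at 242, 269 and 298 CPM in Ctrl, 119, 166 and 176 in hypg3, 179, 192 and 213 in hypg9 and 109.7, 145 and 165 in hypg15. None of these treated libraries reached the Ctrl range. The fold changes were −0.31 ± 0.05 on the log2 scale at hypg20s (adjusted p = 0.0024), −0.78 ± 0.08 at hypg3 (adjusted p = 1.1e-05), −0.46 ± 0.05 at hypg9 (adjusted p = 7.3e-05) and −0.88 ± 0.09 at hypg15 (adjusted p = 3.7e-06). Library 73 of hypg3, at 119 CPM, lay below the other 5 libraries of its group, which began at 161 CPM. In hypg60 RPS24 ranged from 159.5 to 259 CPM and overlapped the Ctrl60 range of 239 to 281 CPM, with a change of −0.34 ± 0.09 (adjusted p = 0.011). Scaled by total counts alone it did not pass at hypg5 (adjusted p = 0.078) or hypg60 (adjusted p = 0.073), and in one model not at hypg5 (adjusted p = 0.091).

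RPL36AL, a paralogue of RPL36A (ENSG00000165502, chr14:49618530-49620626, minus strand), had the largest fall of the called members at hypg5, hypg7, hypg9 and hypg60. It stood at 58.3, 61.6 and 72.5 CPM (lowest, median and highest) in Ctrl, 40.8, 46.9 and 47.8 in hypg75s and 41.6, 45.4 and 45.9 in hypg9, and the groups did not overlap. In Ctrl60 it stood at 60.0, 65.5 and 70.0 CPM and in hypg60 at 32.8, 36.4 and 39.9 CPM, a clear gap. RPL36AL fell by 0.45 ± 0.05 at hypg75s (adjusted p = 3.5e-05), 0.57 ± 0.07 at hypg7 (adjusted p = 0.0003), 0.50 ± 0.05 at hypg9 (adjusted p = 4.9e-05) and 0.87 ± 0.06 at hypg60 (adjusted p = 7.7e-07), each on the log2 scale. With the GC correction it did not pass at hypg20s, hypg3 and hypg15, with −0.093, −0.15 and −0.18 (adjusted p = 0.50, 0.31 and 0.22). Its partner RPL36A passed the test in none of the 8 comparisons, with changes from −0.04 to 0.21. The difference between both genes was not tested.

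RPL31, RPL24 and RPL23 of the large subunit were lower in all 8 comparisons as well, and in 7, 7 and 6 of the 8 with the GC correction. In one model RPL24 did not pass at hypg20s (adjusted p = 0.16) and RPL23 not at hypg20s and hypg5 (adjusted p = 0.11 and 0.074). With the exon length correction RPL23 did not pass at these times either (adjusted p = 0.052 and 0.072), nor at hypg5 without the filter on low counts (adjusted p = 0.062). RPL31 ranged from 472 to 539 CPM in Ctrl and from 413 to 449 CPM in hypg20s, so that it was separated from the control after 20 s already, and fell by 0.23 ± 0.03 on the log2 scale (adjusted p = 0.00079). RPS27A, which is made as a fusion with ubiquitin, also lay below all Ctrl libraries at hypg20s, with −0.21 (adjusted p = 0.0021). RPL7 fell by 0.38 ± 0.08 at hypg20s, 0.71 ± 0.09 at hypg3 and 0.94 ± 0.08 at hypg15 (adjusted p = 2.3e-06), but had −0.06 ± 0.09 at hypg5 and −0.06 ± 0.08 at hypg7 and was not called there. Its libraries stood at 356, 390.3 and 459 CPM in Ctrl, 317, 398 and 453 in hypg7 and 176, 198 and 254 in hypg15, so hypg7 overlapped the control range and hypg15 lay below it. RPL6 showed 567, 593 and 624 CPM in Ctrl60 and 293, 383 and 493.2 CPM in hypg60, without overlap, and fell by 0.61 ± 0.10 (adjusted p = 0.00045).

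RPL5 and RPL11 form a particle with 5S ribosomal RNA that also binds MDM2, and RPS6 is the ribosomal substrate of S6 kinase. RPL11 fell by 0.42 ± 0.05 at hypg3, 0.38 ± 0.06 at hypg7, 0.38 ± 0.05 at hypg9 and 0.60 ± 0.09 at hypg15. Its highest Ctrl library, library 6 at 386 CPM, lay apart from the others at 306 to 335 CPM, and the hypg9 libraries at 246 to 264 CPM lay below all of them. RPL5 fell by 0.35 ± 0.07 at hypg3, 0.37 ± 0.07 at hypg15 and 0.23 ± 0.07 at hypg60, and at hypg9 its −0.13 ± 0.05 did not pass (adjusted p = 0.086). RPS6 fell by 0.29 ± 0.05 at hypg3, 0.25 ± 0.05 at hypg9 and 0.31 ± 0.07 at hypg15, from 1593 to 1923 CPM in Ctrl to 1372 to 1477 CPM in hypg9. With the GC correction neither RPL5 (−0.053 and −0.020) nor RPS6 (−0.093 and −0.10) passed at hypg3 and hypg15, nor RPL5 at hypg60 (−0.089).

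Of the members, 17 passed the test in none of the 8 comparisons, among them the stalk proteins RPLP0, RPLP1, and RPLP2, the small subunit members RPSA, RPS3, RPS9 and RPS26 and the large subunit members RPL7A, RPL13, RPL15, RPL17, RPL18, RPL28, RPL29 and RPL36A. RPLP0 stood at 2576, 2778 and 3195 CPM in Ctrl, 2545, 2655 and 2716 in hypg9 and 1965, 2557 and 2916 in hypg60, against 2458, 2864 and 3045 in Ctrl60. These ranges overlap. Its change was −0.05 ± 0.06 at hypg3 (adjusted p = 0.52), −0.10 ± 0.05 at hypg9 (adjusted p = 0.21) and −0.15 ± 0.09 at hypg60 (adjusted p = 0.22). RPL41, the shortest ribosomal protein, passed only at hypg60, where it fell by 0.24 ± 0.07 (adjusted p = 0.016).

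RPS10 went the other way. It ranged from 4.29 to 5.90 CPM in Ctrl and from 6.70 to 8.05 CPM in hypg15, without overlap. It rose by 0.50 ± 0.09 there (adjusted p = 0.00044) and passed in no other 9 g group. RPS10 is the member with the fewest counts, and its exons overlap another gene.

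**Figure D3:**
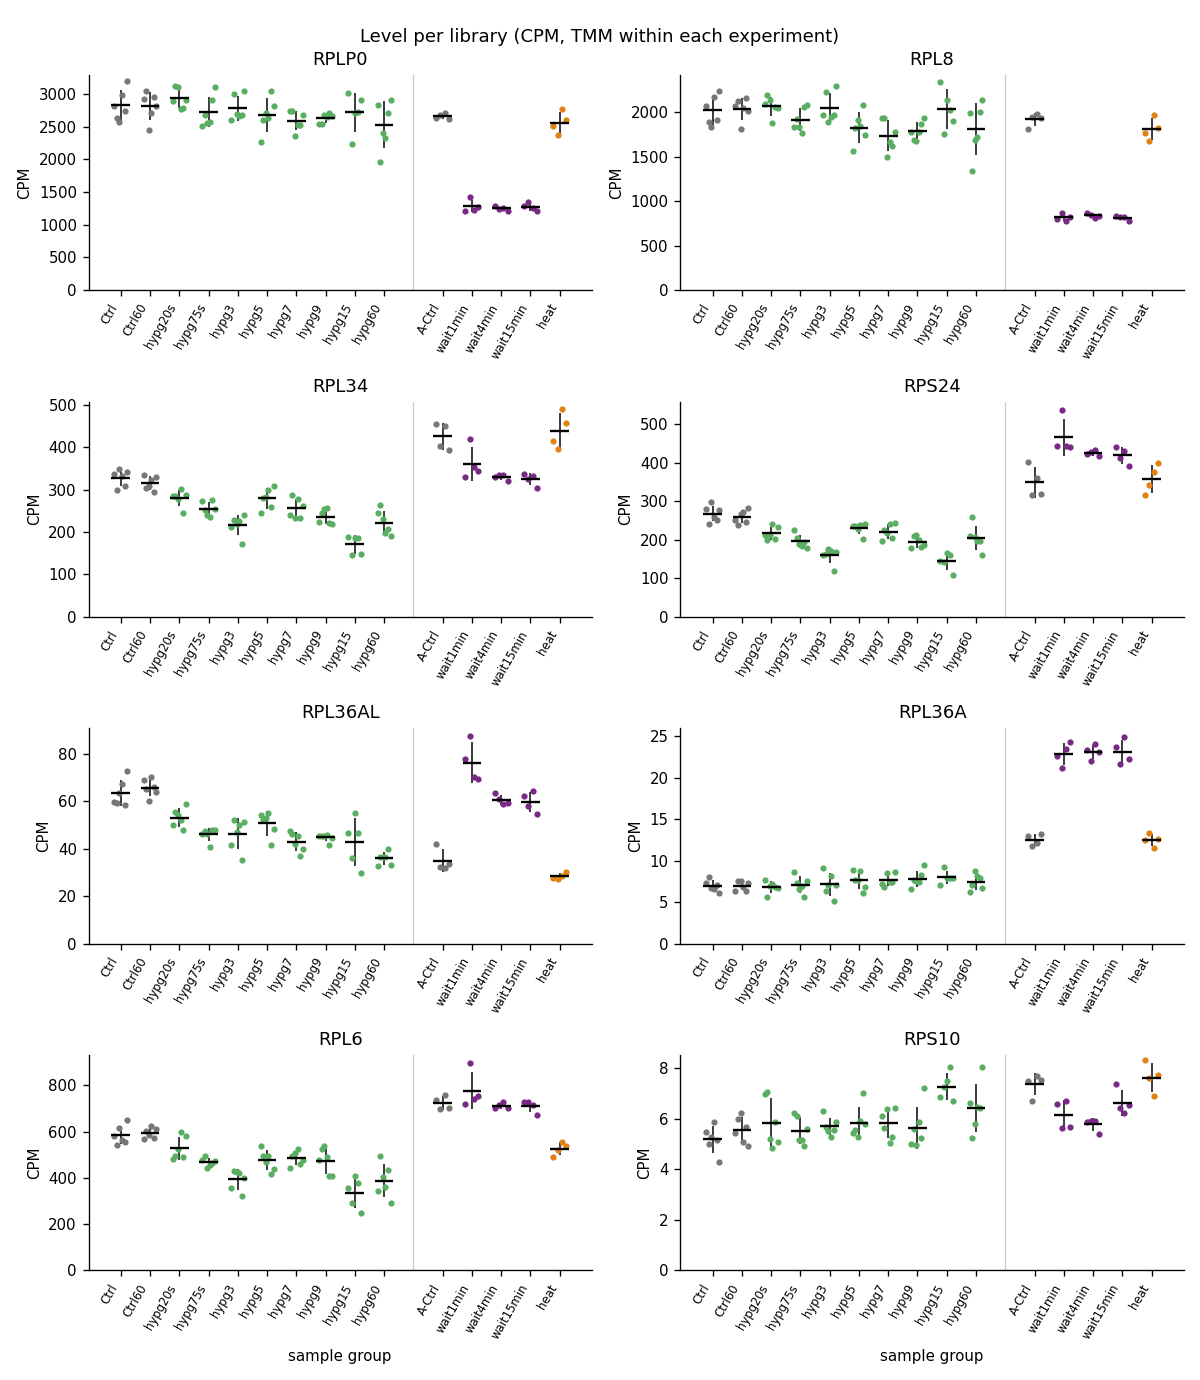
CPM of RPLP0, RPL8, RPL34, RPS24, RPL36AL, RPL36A, RPL6 and RPS10 in each library (points) with the mean and SD of each group; every panel has its own axis from 0. RPL36AL falls from 60.0 to 70.0 CPM in Ctrl60 to 32.8 to 39.9 in hypg60 and is higher after 300 g, at 69.4 to 87.6 CPM in wait1min against 31.9 to 42.0 in A-Ctrl; with the GC correction its direction turns at wait4min and wait15min.

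Groups were also compared directly, with no control between them. Between Ctrl60 and Ctrl 0 members passed edgeR's quasi-likelihood test, beside 0.0124% of all genes. None of the 83 passed at an unadjusted p under 0.05 and DESeq2 called 0. Between hypg9 and hypg75s, 11 members were lower at hypg9 and 0 higher, where 5.00% of all genes were called in either direction. They were RPL11 (−0.24 ± 0.04, adjusted p = 0.002), RPS21 (−0.22 ± 0.04), RPS27 (−0.21 ± 0.04), RPL36 (−0.20 ± 0.05), RPS2, RPS29, RPL35A, RPL38, RPL12, RPL37 and RPL27A. With all 9 g groups in 1 model none of the 11 passed. Between hypg15 and hypg3, RPL34 was lower (−0.33 ± 0.08, adjusted p = 0.049) and RPS10 higher (0.36 ± 0.09, adjusted p = 0.034), with 2.54% of all genes called. RPL34 no longer passed with RLE factors or with the GC correction, which left RPS10.

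Centrifugation at 300 g was followed by a larger change. At wait1min 70 members were lower and 7 higher, at wait4min 75 and 6, and at wait15min 74 and 6, by the same test. Of all genes, 40.1%, 40.6% and 40.5% were lower and 41.4%, 41.7% and 41.8% higher at these times, so that lower members made up 84.3%, 90.4% and 89.2% of the 83 and higher members 8.43%, 7.23% and 7.23%. The medians over the members were −0.72, −0.79 and −0.83, and the medians of single libraries ran from −0.90 to −0.53. The 3 groups share the 4 A-Ctrl libraries. Scaling by total counts alone raised the median of all genes by 0.25 to 0.27 and left 61, 65 and 66 members lower (beside 30.4%, 30.0% and 29.9% of all genes) and 12, 11 and 9 higher (beside 49.7%, 51.0% and 50.9%), with medians of −0.47, −0.53 and −0.57. Without library 54, which stood apart in wait1min, 74 members were lower and 6 higher there. The 40.1% and 41.4% of all genes lower and higher at wait1min belong to the fit with library 54.

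RPL8, a large subunit protein at the peptidyl transferase centre, had the largest fall in the fits without the GC correction. Its GC content was 61.0%, beside a median of 49.4% over the members. Its 4 libraries of A-Ctrl held 1816, 1947, 1983 and 1933 CPM. Those of wait1min held 796, 871, 780.5 and 820.1 CPM, those of wait4min 864, 848, 814 and 828.7 CPM and those of wait15min 838, 824, 819.8 and 772 CPM. Every centrifuged library lay below every control, and the ranges of the 3 waiting times overlapped. RPL8 fell by 1.23 ± 0.04, 1.19 ± 0.03 and 1.24 ± 0.03 on the log2 scale (adjusted p = 6.2e-14, 1.1e-19 and 2.7e-16). RPLP0 held 2630.2, 2675, 2709 and 2617 CPM in A-Ctrl and 1215, 1429, 1231 and 1275 CPM in wait1min, and fell by 1.04 ± 0.05, 1.08 ± 0.02 and 1.06 ± 0.03. RPLP0 had passed the test in none of the 9 g comparisons.

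Other members with large falls were RPS9 (−1.15, −1.15 and −1.16 at the 3 waiting times), RPS16 (−1.05, −1.16 and −1.16) and RPL36 (−1.08, −1.08 and −1.20). The acidic stalk proteins RPLP1 and RPLP2 fell by 1.05, 1.09 and 1.12 and by 0.80, 0.81 and 0.84. RPSA, also known as the laminin receptor precursor, fell by 0.96, 1.04 and 1.01, RPS6 by 0.62, 0.72 and 0.74 and RPL41 by 0.92, 1.07 and 1.11. RPL11 fell by 0.25, 0.44 and 0.47, the first of which did not pass by total counts alone (−0.0057, adjusted p = 0.91). Its partner RPL5 had −0.09 ± 0.05 at wait1min (adjusted p = 0.1) and fell by 0.15 and 0.18 later, a direction that turns to +0.11 and +0.08 when libraries are scaled by total counts alone. RPS27A fell by 0.15 and 0.17 and RPL26 by 0.23 and 0.25 at wait4min and wait15min, and their signs at these times turn under that scaling as well. RPL6 was not called at any waiting time, with 0.11, −0.02 and −0.02.

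There were 6 members that rose at all 3 waiting times. RPL36AL held 42.0, 32.1, 31.9 and 33.7 CPM in A-Ctrl, 77.8, 87.6, 70.0 and 69.4 CPM in wait1min, 63.5, 60.9, 58.8 and 59.4 in wait4min and 62.1, 58.1, 64.1 and 54.4 in wait15min. All centrifuged libraries lay above all controls. It rose by 1.13 ± 0.08, 0.81 ± 0.06 and 0.78 ± 0.07 on the log2 scale (adjusted p = 6.4e-10, 3.8e-11 and 6.7e-09), but with the GC correction the change was 0.25 at wait1min and −0.04 and −0.07 later. RPL36A, its partner on the X chromosome (ENSG00000241343, chrX:101390824-101396155, plus strand), held 13.0, 11.8, 12.1 and 13.2 CPM in A-Ctrl and 22.6, 21.2, 23.5 and 24.3 CPM in wait1min. It rose by 0.87 ± 0.06, 0.89 ± 0.06 and 0.89 ± 0.06, and by 0.23, 0.28 and 0.28 with the GC correction. RPL22, a protein whose gene is a target of mutations in T cell leukaemia (ENSG00000116251, chr1:6185020-6209389, minus strand), held 57.0, 58.1, 61.2 and 58.8 CPM in A-Ctrl and 82.96, 91.9, 84.3 and 84.3 CPM in wait1min. It rose by 0.55 ± 0.04, 0.46 ± 0.04 and 0.47 ± 0.04, and by 0.51, 0.42 and 0.43 with the GC correction, the least affected of the 6.

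RPL7, RPS24 and RPS27L made up the rest of the 6, and their direction depended on the correction. RPL7 rose by 0.50 ± 0.08, 0.34 ± 0.05 and 0.34 ± 0.06, and with the GC correction it had −0.14, −0.28 and −0.28. RPS24 rose by 0.42 ± 0.07, 0.29 ± 0.05 and 0.27 ± 0.05, and its sign turned at wait4min and wait15min with the correction for GC (−0.05 and −0.08) or exon length (−0.04 and −0.07), while at wait1min it did not pass with either (0.056 and 0.085). RPS27L, a p53 target and paralogue of RPS27, rose by 0.48 ± 0.08, 0.40 ± 0.06 and 0.31 ± 0.07, against −0.51, −0.55 and −0.65 with the GC correction and −0.01 and −0.11 at wait4min and wait15min with the exon length correction. These 3 genes, like RPL36AL, had been lower at hypg3 and hypg15 in the 9 g experiment. Library 54 stood apart in RPL7 and RPS24, with 832 and 537 CPM, where the other libraries of wait1min held 664 to 675 and 440.2 to 443 CPM.

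Within the pairs of paralogues, the canonical gene and its paralogue had values of their own at 300 g. RPS27 fell by 0.41, 0.71 and 0.65 where RPS27L rose, though not with the corrections given above. RPL7L1 fell by 0.34, 0.31 and 0.29 where RPL7 rose, again before the GC correction, and RPL7L1 did not pass at wait4min and wait15min by total counts alone (−0.049 and −0.031). RPL22L1 had 0.25 ± 0.08, 0.08 ± 0.06 and 0.01 ± 0.06, passed at wait1min (adjusted p = 0.0094) and stood at −1.08 there with the GC correction. RPL39 and RPL39L fell together, by 0.61, 0.69 and 0.76 and by 0.78, 0.95 and 0.95. RPL26 and RPL26L1 had −0.04 and −0.09 at wait1min without passing and fell by 0.23 and 0.16 at wait4min, although by total counts alone they had 0.03 and 0.10. The differences between partners were not tested.

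Between waiting times the members differed little by count. From wait1min to wait15min 1 member was lower and 0 higher, with 0.149% of all genes called. It was RPL36AL, at −0.35 ± 0.06 (adjusted p = 0.021), with 69.4 to 87.6 CPM in wait1min and 54.4 to 64.1 CPM in wait15min. It lost the call without library 53, 62 or 64 and with the GC or exon length correction. The median over the members was −0.10, and 77 of 83 lay below 0. Library 54 of wait1min is part of this comparison. It held 4.75% of its counts on the members, against 4.17% to 4.197% in the other libraries of wait1min. Without library 54 the mean share in wait1min was 4.18%. Without the filter on low counts 29 members were called lower, beside 0.741% of all genes in that fit, the setting that moved this number most.

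The members differed among themselves in a way that followed their base composition. At hypg3, 35 of the 41 members with GC content below the members' median were lower (median −0.31) and 14 of the other 42 (median −0.08). At hypg15 it was 33 of 41 (median −0.35) and 11 of 42 (median −0.08), and at hypg60 33 and 17. Of all genes 24.4%, 27.9% and 13.0% were lower in these 3 groups, so the number of high GC members lower at hypg15 is near the background. After 300 g the order was the opposite: at wait1min the members of low GC had a median of −0.40 and included all 7 that rose, and those of high GC had a median of −0.94 with 41 of 42 lower. Spearman's rho between GC content and log2 fold change over the 83 members was 0.69, 0.66, 0.70, 0.27, 0.15, 0.42, 0.65 and 0.49 in the 9 g groups in order of time, and −0.77, −0.74 and −0.74 after 300 g. The members come from the same libraries, so these values are descriptions.

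The same relation held over all genes tested with a known GC content, where rho was 0.68 at hypg3, 0.68 at hypg15, 0.10 at hypg7 and −0.70 at wait1min. With a smooth curve of counts against GC content removed from each library, 41 members were lower at hypg3, 45 at hypg15, 71 at hypg9 and 61 at hypg60, and 74, 78 and 78 after 300 g. In the same corrected fits 13.2%, 18.3%, 15.3% and 20.5% of all genes were lower at 9 g and 39.4%, 40.3% and 39.9% after 300 g. The medians then were −0.14, −0.19, −0.21 and −0.24 at 9 g and −0.57, −0.63 and −0.67 at 300 g, all below 0. The members of low and high GC had medians of −0.13 and −0.15 at hypg3 after this correction. At hypg20s 5 members were lower after the correction, beside 4.74% of all genes, where 12 had been lower before it. The part of GC content in the calls was not tested beyond this correction.

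The mean count of a member went with its fold change about as closely as GC content did in several groups. Spearman's rho between mean count and log2 fold change over the 83 members was 0.64 at hypg20s, 0.50 at hypg3, 0.45 at hypg15 and 0.38 at hypg60, and −0.76, −0.73 and −0.71 at the 3 waiting times. With the GC correction it was 0.24, 0.22, 0.19 and 0.16, and −0.34, −0.30 and −0.27. Over all genes tested it was 0.01 at hypg20s, −0.16 at hypg3 and −0.34 at wait1min. The part of the mean count in the calls was not tested.

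**Figure D4:**
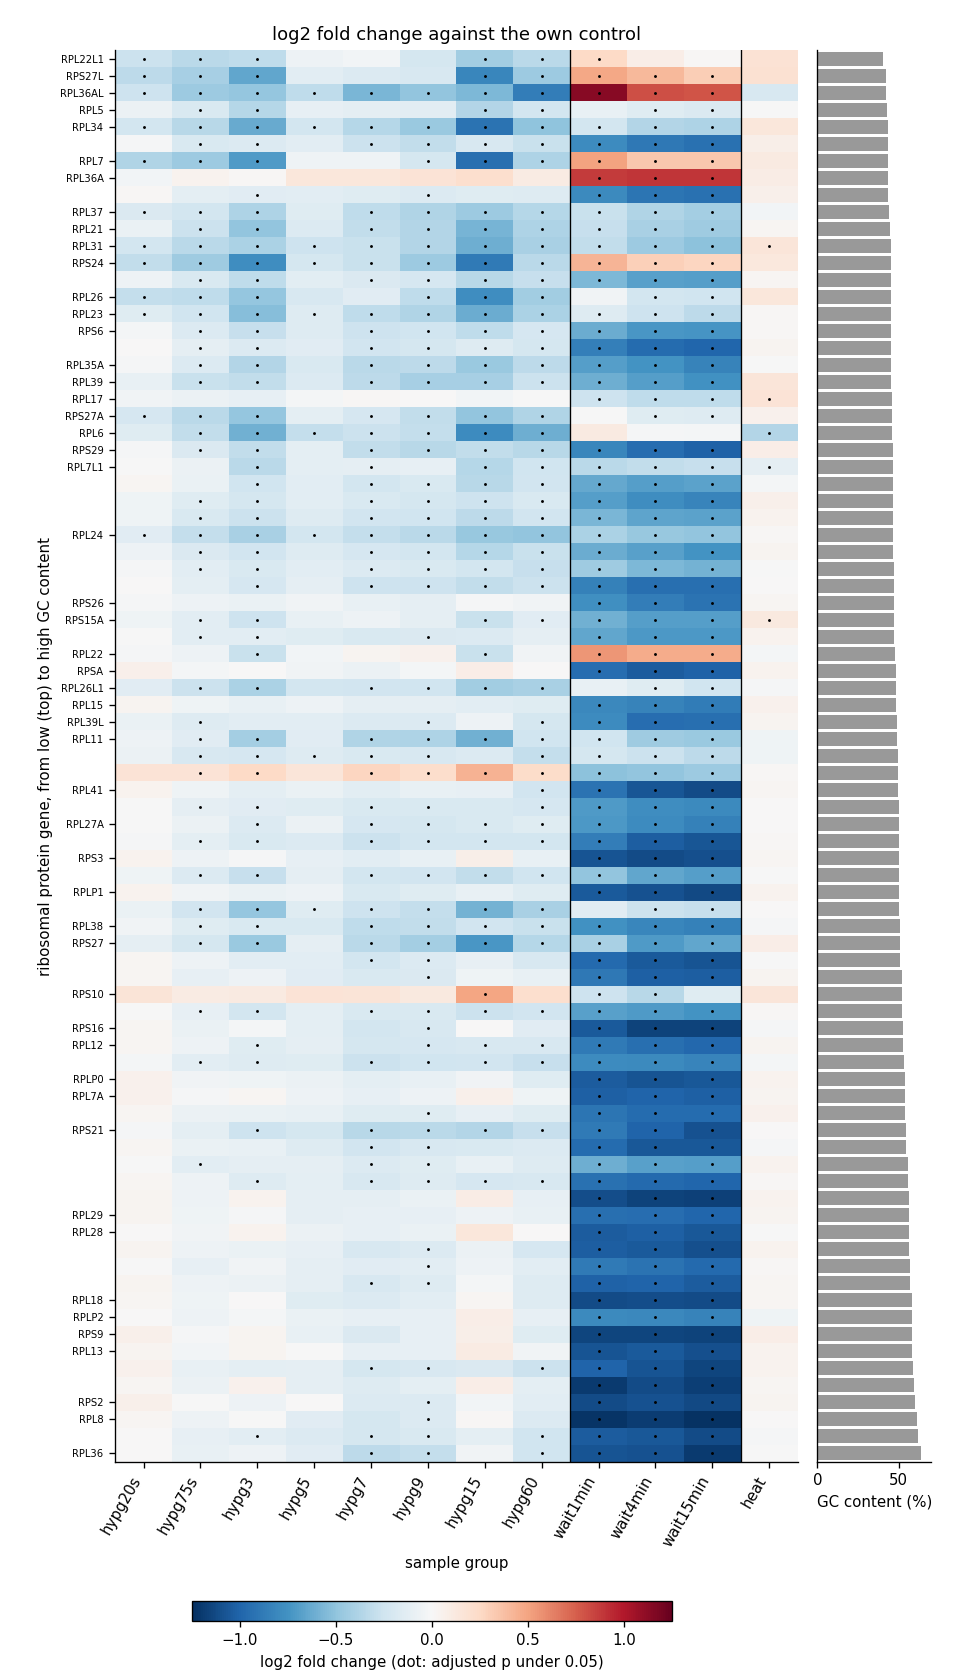
Log2 fold change of the 83 members (rows, ordered by GC content, with labels for members named in the text) in the 12 comparisons of a group with its own control (columns); dots mark members called at an adjusted p-value under 0.05. In hypg3 and hypg15 the lower values lie among members of low GC content and in the 3 groups after 300 g among those of high GC content, and the higher values of RPL36AL, RPL7, RPS24 and RPS27L after 300 g turn with the GC correction in at least 1 of the 3 groups.

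**Figure D5:**
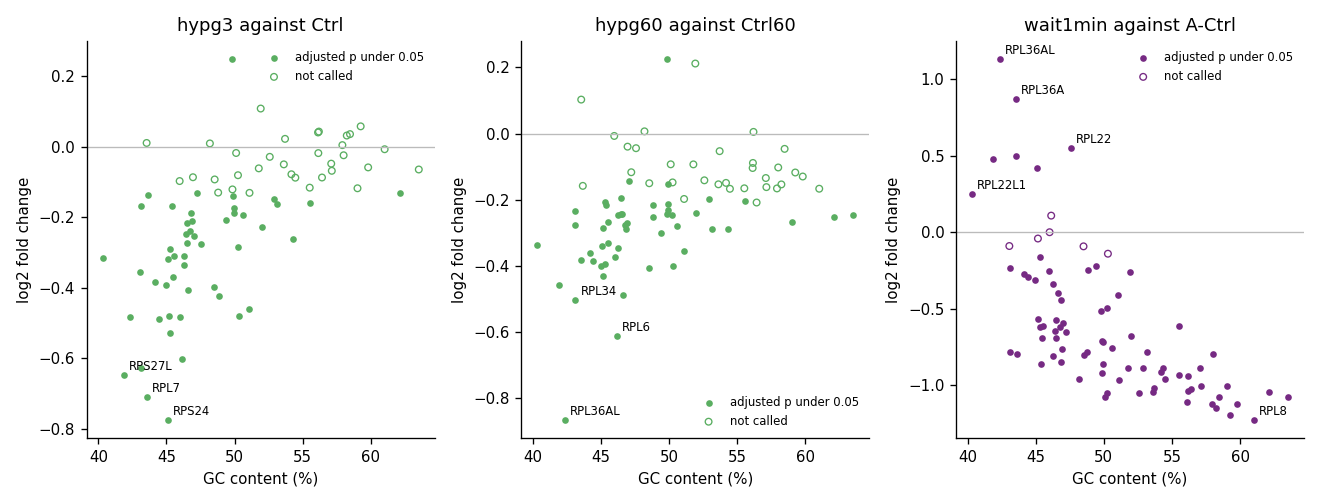
Log2 fold change against GC content (percent) of the 83 members at hypg3, hypg60 and wait1min, 1 point per gene. Spearman's rho was 0.70 at hypg3, 0.49 at hypg60 and −0.77 at wait1min, so the slope at wait1min is opposite to that at 9 g.

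The experiments with separate controls can be set against each other gene by gene. Over the 83 members, Spearman's rho between the fold changes of wait1min and those of hypg3, hypg15 and hypg60 was −0.76, −0.70 and −0.53, and −0.54, −0.46 and −0.37 with the GC correction. Members with the lower values at 9 g tended to have the higher values after 300 g. Between hypg60 against Ctrl60 and hypg3 against Ctrl, which share no library, rho was 0.86 (0.84 with the GC correction). The points share GC content and the level of the gene, and genes are not independent replicates.

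Splits by subunit, by small nucleolar RNAs and by the start tract gave medians that lay close together. Large and small subunit members had medians of −0.20 and −0.19 at hypg9 (34 of 51 and 23 of 32 lower) and −0.83 and −0.87 at wait15min (45 and 29 lower). The 28 hosts of small nucleolar RNAs had a median of −0.84 at wait15min with all 28 lower, and the other 55 members a median of −0.83 with 46 lower and 6 higher. At hypg9 20 of the hosts and 37 of the others were lower. Of all genes 8.34% were lower at hypg9, and 40.5% were lower and 41.8% higher at wait15min. Members with the start tract shown above had medians of −0.20 at hypg9 and −0.85 at wait15min (n = 47), and the 20 with a start site but no tract −0.19 and −0.81. Risers after 300 g were found in both sets, RPL36A, RPL22 and RPS24 with the tract and RPL36AL and RPS27L without it, as printed above. RPL36AL counts as without it only at the exact annotated base, since a run of pyrimidines spans that start. None of these splits was tested.

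After heat at 42 °C the members were mostly not called. Of the 83, 3 were higher and 2 lower, beside 10.6% and 10.2% of all genes, and the median was 0.03. RPL6 held 738, 696, 757 and 703 CPM in A-Ctrl and 489, 522, 557 and 537 CPM in heat, with every heated library below every control. It fell by 0.36 ± 0.03 on the log2 scale (adjusted p = 2.4e-06). RPL7L1 fell by 0.11 ± 0.03 (adjusted p = 0.031), and RPL17 (0.17 ± 0.05), RPL31 (0.15 ± 0.05) and RPS15A (0.12 ± 0.04) rose (adjusted p = 0.021, 0.025 and 0.033). With all 20 libraries in 1 model, which changes the genes tested, the factors and the spread together, 5 members were lower and 0 higher (beside 21.6% and 7.85% of all genes) and the median was −0.04. With the GC correction 9 were higher and 3 lower (beside 12.6% of all genes in each direction). By total counts alone 6 were higher and 1 lower (beside 13.5% and 7.04%), with a median of 0.06. RPL7L1 did not pass by total counts alone (adjusted p = 0.10) or with the exon length correction (adjusted p = 0.14), nor RPL17 with the latter (adjusted p = 0.052). RPL6 stayed lower in one model and with the GC correction, at −0.43 and −0.34.

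Other mRNAs with a TOP motif, 19 genes for translation factors and related proteins of which 18 were tested, had medians near those of the members at 9 g. At hypg9 10 were lower and 0 higher (median −0.16), at hypg15 9 and 0 (median −0.18) and at hypg60 8 and 0 (median −0.20). At wait15min 12 were lower and 6 higher (median −0.68). All genes were called lower in 8.34%, 27.9%, 13.0% and 40.5% and higher in 11.3%, 25.4%, 17.1% and 41.8% of cases at these 4 groups. FAU, which encodes a further small subunit protein as a fusion, fell by 1.16 and EEF2, the translocase of elongation, by 1.07, while NACA, EIF3E and NPM1 rose by 1.21, 1.15 and 0.92. At 9 g the same 3 genes fell, NACA by 0.75 and NPM1 by 0.70 at hypg60 and EIF3E by 1.18 at hypg15. These values are given without the GC correction. Over all genes with a known GC content, Spearman's rho between it and log2 fold change was −0.67 at wait15min. After heat 2 of the 18 were lower and 0 higher.

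Of 32 genes for ribosome assembly, 17 were lower and 4 higher at hypg15 (median −0.24), 13 and 3 at hypg60 (median −0.20), and 17 and 14 at wait15min (median −0.20). Beside the shares of all genes just given, the counts at wait15min are near the background. Large changes ran both ways at wait15min: NOP58 and LTV1, a snoRNP protein and a factor of small subunit export, rose by 1.92 and 1.76, and FBL, the methyltransferase of box C/D particles, and NHP2 fell by 1.09 and 1.08. At hypg60 LTV1 and NCL, the gene of nucleolin, fell by 0.64 and 0.55, and MDN1 rose by 0.52. Of 12 regulators of TOP mRNAs or their transcription, 5 were higher and 0 lower at hypg60 (median 0.14), among them TSC1 (0.38) and MTOR (0.16), beside 17.1% and 13.0% of all genes, and 3 were higher and 9 lower at wait15min (median −0.53), beside 41.8% and 40.5%. There RPS6KB1, the gene of S6 kinase, and LARP4 rose by 1.95 and 1.83, and EIF4EBP1 and MYC fell by 1.05 and 0.77. The changes of single assembly genes and regulators are likewise given without the GC correction. After heat 8 assembly genes were lower and 2 higher, and 5 regulators lower and 1 higher, beside 10.2% and 10.6% of all genes.

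The processed pseudogenes of the members, 1599 in the table, carried few counts and 147 of them were tested at hypg9, where 55 were lower and 14 higher (median −0.27), beside 8.34% and 11.3% of all genes. At hypg60 40 of 138 were lower and 14 higher (median −0.22), and at wait15min 70 of 170 were lower and 64 higher (median −0.20), beside 13.0% and 17.1% and beside 40.5% and 41.8% of all genes, so that the pseudogenes at wait15min were near the background. Their counts as a percentage of the members' counts were 1.33% ± 0.0375 in Ctrl (SD, n = 6), 1.38% ± 0.0182 in hypg9, 1.33% ± 0.0194 in A-Ctrl and 1.56% ± 0.0546 in wait15min (n = 4). Reads that match a gene and its pseudogene equally well were not counted for either, so a gene and its copies cannot be fully separated in these counts.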

How the data were processed

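RNA of Jurkat T cells was measured by paired-end RNA-Seq in 80 libraries. The 79 libraries used held 22634465 to 41893490 counts each. The authors deposited one table of raw counts, which give for each annotated gene (GRCh38) the number of read pairs counted, without normalization. Per the submitters' processing notes, reads were trimmed with Trim Galore 0.6.5, aligned with STAR 2.7.3a and counted with featureCounts 2.0.1, and DESeq2 1.28.1 is listed, whereas the file header names featureCounts 2.0.3. Pairs that matched several places, or exons of several genes, were not counted, which lowers genes with near-identical copies such as the members. The other unit in the deposited table is exon length in bases, per the file headers the summed exons of a gene. Of the sample columns 0 were left unused, and 2 broken lines of the gene ANK2 were dropped. The table holds 60663 genes, 60462 of them with a symbol and 58336 with a GC content, which came from the transcripts of another annotation release.

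Members were found by symbol and a mean count of at least 100. The members and the gene lists were chosen with earlier results of these data known. Library 75 was left out. Each comparison was tested in R 4.3.3 with edgeR 4.0.16 (quasi-likelihood F test) over all genes that passed filterByExpr at a minimum count of 10, with TMM factors, only the groups compared, and Benjamini-Hochberg adjustment, and calls required an adjusted p-value under 0.05. CPM were computed with TMM factors over all libraries of an experiment, and standard errors of log2 fold changes come from the F statistic. Shares are percent of all counts in a library. Start sites came from RefSeq promoter windows of GRCh38.p14.

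The genes named are RPLP0, RPLP1, RPLP2, RPSA, RPS6, RPL5, RPL11, RPL41, RPS27A, the paralogues with their partners, and in each comparison the 3 members with the largest rise and the 3 with the largest fall among those called whose groups did not overlap. Members named outside this rule were chosen after their values were seen, and some genes are not reported here by name. Alternatives were no filter on low counts, RLE factors or total counts alone, the Wald test of DESeq2 1.42.0, all groups of an experiment in one model, offsets from a lowess curve (span 0.3, prior count 2) of each library's log2 counts against GC content or exon length, entering library 75, a protein-coding denominator for shares, and leaving out each library in turn at 300 g, heat and hypg15. Leaving out library 9 of Ctrl60 was added after seeing the data. The model was tested on simulated data before use. Python 3.11.15 with numpy 2.4.6, pandas 2.3.3, scipy 1.17.1 and matplotlib 3.10.9 were used for all other steps.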

Additional observations from a re-analysis of the deposited data

Results flagged for a closer look

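The members' share of counts and the CPM of 11 members were examined in each group for a library far from the rest, and 14 of 180 groups met the criterion, where chance gives about 1 in 20. In the 300 g experiment library 54 of wait1min stood above the other 3 libraries in the members' share of counts (4.75% against 4.17% to 4.197%), in RPS6 (1238 CPM against 1075 to 1097), in RPS24 (537 CPM against 440.2 to 443), in RPL7 (832 CPM against 664 to 675) and in RPS27 (351 CPM against 279 to 288). Without it the members' share in wait1min was 4.18% ± 0.0128 (n = 3), and 74 members were lower and 6 higher than in A-Ctrl. In the fit with library 54, 40.1% of all genes were lower and 41.4% higher. Library 60 of wait4min held a lower share than the other 3 (4.12% against 4.199% to 4.21%). Library 67 of heat had more RPL11 (508 CPM against 444 to 446).

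In the 9 g experiment library 9 of Ctrl60 held a lower share of counts on the members (6.19% against 6.75% to 6.89%). Library 6 of Ctrl had more RPL11 (386 CPM against 306 to 335) and library 30 of hypg5 less (234 CPM against 304 to 327). RPS24 was low in library 73 of hypg3 (119 CPM against 161 to 176) and in library 29 of hypg5 (202 CPM against 227 to 242). RPL36AL was low in library 22 of hypg75s (40.8 CPM against 46.0 to 47.8) and in library 41 of hypg9 (41.6 CPM against 44.5 to 45.9).

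Direct tests between durations or waiting times found differences in 11 members between hypg9 and hypg75s, all lower at hypg9, in 2 between hypg15 and hypg3, RPL34 lower and RPS10 higher at hypg15, and in 1 between wait15min and wait1min, RPL36AL lower at wait15min.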

How the results depend on the processing

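No paired analysis was possible because every library carries its own number from 1 to 80 and no groups share replicate numbers. The counts of called members and the shares that moved by over 1.5 times, by over 1 SD or in direction under an alternative are given here with that value, and the cause was not tested. The other total counts of called members, higher and lower together, and the other shares kept their direction and lay within these limits. Counts under an alternative stand here without the share of all genes in that fit, which the results give for some of them. Where it is missing, a count cannot be set against a background. Of the higher calls alone, those at wait1min, wait4min and wait15min went from 7, 6 and 6 to 12, 11 and 9 with total counts only. The members called at hypg20s numbered 5 with the GC correction (12 as reported). At hypg5 (9 as reported) they numbered 20 with total counts only, 17 with DESeq2 and 28 with the GC correction. At hypg15 (46 as reported) they numbered 28 with library 75 entered, which had no count for 32 of the 83 members, and 42 to 50 with 1 library left out. After heat (3 higher and 2 lower as reported) they numbered 10 without the filter on low counts, 12 with the GC correction and 9 with the exon length correction, and 5, all lower, in one model. With 1 library left out they numbered 2 to 10, and lower calls outnumbered higher ones without library 50 (3 called) or 52 (3 called) of A-Ctrl or library 67 of heat (4 called). Without library 49 of A-Ctrl 10 were called and without library 68 of heat 2. Between hypg9 and hypg75s (11 as reported, beside 5.00% of all genes) 17 were called with the GC correction and 0 in one model. Between hypg15 and hypg3 (2 as reported) 1 was called with RLE factors, 1 with the GC correction, 5 in one model and 0 with library 75 entered. Between wait15min and wait1min (1 as reported) 29 were called without the filter, 2 with total counts only, 3 with DESeq2, 2 in one model and 0 with the GC or exon length correction, and 0 to 1 with 1 library left out, the call being lost without library 53, 62 or 64. At wait1min, wait4min and wait15min 76 to 80, 81 to 81 and 80 to 81 were called with 1 library left out. The share of counts in the members, wait4min as percent of A-Ctrl, was 66.6% and became 65.9% with protein-coding counts as the denominator.

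Single genes turned direction as follows. With the GC correction RPL22L1 had 0.092 at hypg3, 0.071 at hypg15 and −1.08 at wait1min, and at wait1min, wait4min and wait15min RPL7 had −0.14, −0.28 and −0.28 and RPS27L −0.51, −0.55 and −0.65. At wait4min and wait15min the GC correction gave RPL36AL −0.039 and −0.070 and RPS24 −0.052 and −0.077, and the exon length correction gave RPS24 −0.043 and −0.073 and RPS27L −0.0093 and −0.11. Scaling by total counts only gave RPL34 0.011 at wait1min, and at wait4min and wait15min RPL26 0.027 and 0.0075, RPL26L1 0.10 and 0.012, RPL5 0.11 and 0.083 and RPS27A 0.11 and 0.10. Named members kept their direction but lost a call 21 times with the GC correction, 14 with total counts only, 13 with the exon length correction and 12 in one model. Over all genes, total counts only moved the numbers higher and lower from 1091 and 1017 to 1720 and 836 at hypg7, from 1849 and 1366 to 2531 and 908 at hypg9, from 2791 and 2125 to 3364 and 1471 at hypg60, from 7104 and 6882 to 8527 and 5218 at wait1min, from 7154 and 6972 to 8753 and 5144 at wait4min, from 7171 and 6941 to 8729 and 5130 at wait15min and from 1770 and 1691 to 2252 and 1173 after heat, where one model gave 1461 and 4027. At hypg5 total counts only moved these numbers from 705 and 276 to 1120 and 269. The exon length correction moved them from 2740 and 3945 to 3734 and 3252 at hypg3, and shifted the median of all genes by −0.14, −0.13 and −0.13 at the 3 waiting times. Depth limits most the members with the fewest counts, RPS10, RPL36A and RPL22L1.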
